A study of Mus musculus with 10 samples.

Results

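The genes that carry glucose to pyruvate and lactate were examined in germ cells of WT and GRTH Knock-In (KI) mice. They were chosen by name, as a list of 36 symbols covering glucose transporters, the glycolytic enzymes with their isozymes, the lactate dehydrogenases, the subunits of the pyruvate dehydrogenase complex and the monocarboxylate transporters. The table of values held 35 of them among 15507 genes, and these 35 passed the filter on low counts with 15389 genes in all. Eno2, the remaining symbol, was not analysed here. 7 of the 35 are spermatogenic isozymes (Aldoart1, Aldoart2, Gapdhs, Pgk2, Eno4, Ldhc and Pdha2), and the other 28 include the widely expressed partner of each.

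RNA was sequenced from germ cells of the testes of 5 WT and 5 homozygous KI mice, 1 library per mouse. Mice of both genotypes were 45 days old. The KI allele is human GRTH carrying R242H, in which arginine is replaced by histidine, and GRTH (DDX25) is an RNA helicase of the testis. Seminiferous tubules of decapsulated testes were dispersed with collagenase and trypsin and the suspension was filtered to a germ cell fraction, with no sort by stage, so that spermatogonia, spermatocytes and spermatids are held together. In such bulk RNA fewer cells of a type and less RNA per cell cannot be told apart. Values are normalized counts, the reads on a gene divided by the size factor of the library, and fold changes are differences of mean log2(normalized count + 1), KI against WT, with their SE from limma over 10 libraries.

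The recovered reads per library numbered 13323024 to 16422347 in WT and 12722086 to 15500582 in KI, and the 3 reads that a count of 0 allows were worth 2.61 to 3.62 normalized counts. Ddx25, the targeted mouse gene, lay at 5198 to 11101 in WT and at 1.84 to 194 in KI. Of 6 markers of elongating spermatids, 6 were down-regulated, with a summed level of 189480 to 348192 in WT and 22699 to 51546 in KI. Libraries 4 and 5 of each genotype had a higher mean read quality in the read statistics of the study than libraries 1 to 3. The mean of that summed level over libraries 1 to 3 was 317965 in WT and 49350 in KI. Over libraries 4 and 5 it was 193286 in WT and 30077 in KI, so that results on which these libraries bear are given for each set. Summed markers of spermatocytes (16022 to 21217 in WT, 15840 to 18666 in KI) and spermatogonia overlapped between genotypes. Among these 12 genes limma gave no call, and 1 was higher and 2 were lower at an unadjusted p under 0.05. The 2 lower genes, Gfra1 (log2 fold change −0.48) and Spo11 (−0.41), also passed the adjusted p.

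Glycolysis splits glucose into pyruvate. A preparatory phase spends ATP to make triose phosphates, and a payoff phase recovers ATP and NADH from them. Lactate dehydrogenase interconverts pyruvate and lactate, and the pyruvate dehydrogenase complex feeds pyruvate into the citric acid cycle. In the testis, Sertoli cells are known to supply lactate to spermatocytes and spermatids, while sperm carry glycolytic enzymes along the flagellum and depend on them for motility. Of the widely expressed members, Pgk1 and Pdha1 lie on the X chromosome, which is silenced during meiosis. Their autosomal copies Pgk2 and Pdha2 are expressed in meiotic and later germ cells. The partners Gapdh, Aldoa, Eno1 and Ldha are themselves autosomal. Gapdhs, Ldhc and Eno4 are further isozymes of germ cells and sperm.

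The spermatogenic genes and their partners differ in structure as well as in tissue. Aldoart1, Aldoart2, Pgk2, Pdha2 and the lactate dehydrogenase gene Ldhal6b were annotated with a maximum of 1 exon in GENCODE vM21, against 10 exons for Aldoa and 11 for Pgk1 and Pdha1. The longest coding mRNAs of Aldoart1 and Aldoa were 93.4% identical over 1498 aligned bases, those of Aldoart2 and Aldoa 91.2% over 1286, and those of Pgk2 and Pgk1 79.7% over 1249. The other pairs with a long alignment were Pdha2 and Pdha1 (77.2%), Ldhc and Ldha (76.3%) and Gapdhs and Gapdh (74.4%). No stretch of 100 bases was shared between any of these mRNAs and that of another member.

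Sequences upstream of the start are shown for the 3 pairs whose ratio of isozyme to partner differed most between genotypes, as described below for the ratios, so that the promoters of each pair can be set side by side. They are RefSeq sequences of GRCm38.p6, printed 5′ to 3′ on the strand of the gene, with each CG dinucleotide in capitals. Those of Gapdhs (chr7:30743682-30743781), Pdha2 (chr3:141212356-141212455), Gapdh (chr6:125165774-125165873) and Pdha1 (chrX:160138431-160138530) are on the minus strand and that of Pgk1 (chrX:106187000-106187099) is on the plus strand, each holding the 100 bases before the start. That of Pgk2 (chr17:40208641-40208709, minus strand) holds 69 bases, from 100 to 32 before the start, since the bases nearer to the start lie in an annotated exon. The RefSeq start of Gapdh lay 695 bases from the start in the deposited table.
Gapdhs: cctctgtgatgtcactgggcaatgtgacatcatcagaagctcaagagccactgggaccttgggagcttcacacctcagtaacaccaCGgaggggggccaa
Gapdh: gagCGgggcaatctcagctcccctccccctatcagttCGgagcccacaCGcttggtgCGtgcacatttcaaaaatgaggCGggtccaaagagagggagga
Pgk2: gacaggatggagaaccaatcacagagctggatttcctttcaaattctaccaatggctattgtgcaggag
Pgk1: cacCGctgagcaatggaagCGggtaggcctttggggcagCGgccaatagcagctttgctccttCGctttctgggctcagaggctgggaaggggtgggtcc
Pdha2: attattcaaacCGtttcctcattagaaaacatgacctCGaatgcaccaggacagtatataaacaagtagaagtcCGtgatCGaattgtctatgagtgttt
Pdha1: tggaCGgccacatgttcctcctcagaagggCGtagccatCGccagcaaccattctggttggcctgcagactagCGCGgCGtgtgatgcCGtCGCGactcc

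The whole 300-base window runs from 250 bases before to 50 after the start. In it, Gapdhs, Pgk2 and Pdha2 each held 4 CG dinucleotides, and Gapdh, Pgk1 and Pdha1 held 12, 24 and 21. The other pairs with both windows differed in direction. Aldoart2 held 9 and Aldoa 0, Eno4 and Eno1 held 24 each, and Ldhc held 9 and Ldha 30. The median was 7 over 32851 such windows of mouse genes. Among the 6 spermatogenic isozymes with a window the number ran from 4 to 24 (median 6.5), and among 26 other members from 0 to 42 (median 19). The full cyclic AMP response element TGACGTCA, read on both strands, was found in 1.79% of all windows and among the members in that of Ldha. Its shorter part TGACG, which the full element contains, was found on either strand in 20.8% of all windows and in those of 10 members, Gapdhs and Ldhc included. TATAAA, searched on both strands, was found in 13.6% of all windows and in those of Slc2a1, Ldhal6b and Pdha2. These matches describe the letters of the windows.

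Of the 35 genes, 3 were up-regulated (8.57%) and 6 were down-regulated (17.1%) in KI germ cells at an adjusted p under 0.05 in limma and a fold change of at least 1.5. Over all 15389 genes tested, 6.13% were up-regulated and 8.22% were down-regulated, 14.4% in either direction. The down-regulated members were Hk1, Gpi1, Aldoart2, Gapdhs, Pgk2 and Pkm, 3 of them spermatogenic isozymes and 3 not. The up-regulated members were Pfkl, Aldoc and Pdha1, which are among the members with low counts. A further 6 members, Aldoa, Aldoart1, Tpi1, Eno1, Eno4 and Pgk1, passed the adjusted p with a difference under 1.5-fold, which made 11 members lower and 4 higher by the adjusted p alone (13.3% and 9.65% of all genes tested). The median log2 fold change was −0.09 over the members and 0.03 over all genes tested, and it was −0.43 over the 7 spermatogenic isozymes and −0.05 over the other 28. In 10 members the genotypes did not overlap and KI was lower, and in 1 member they did not overlap and KI was higher (10.9% and 6.80% of all genes tested). The plot of fold changes shows each member by role.

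**Figure D1:**
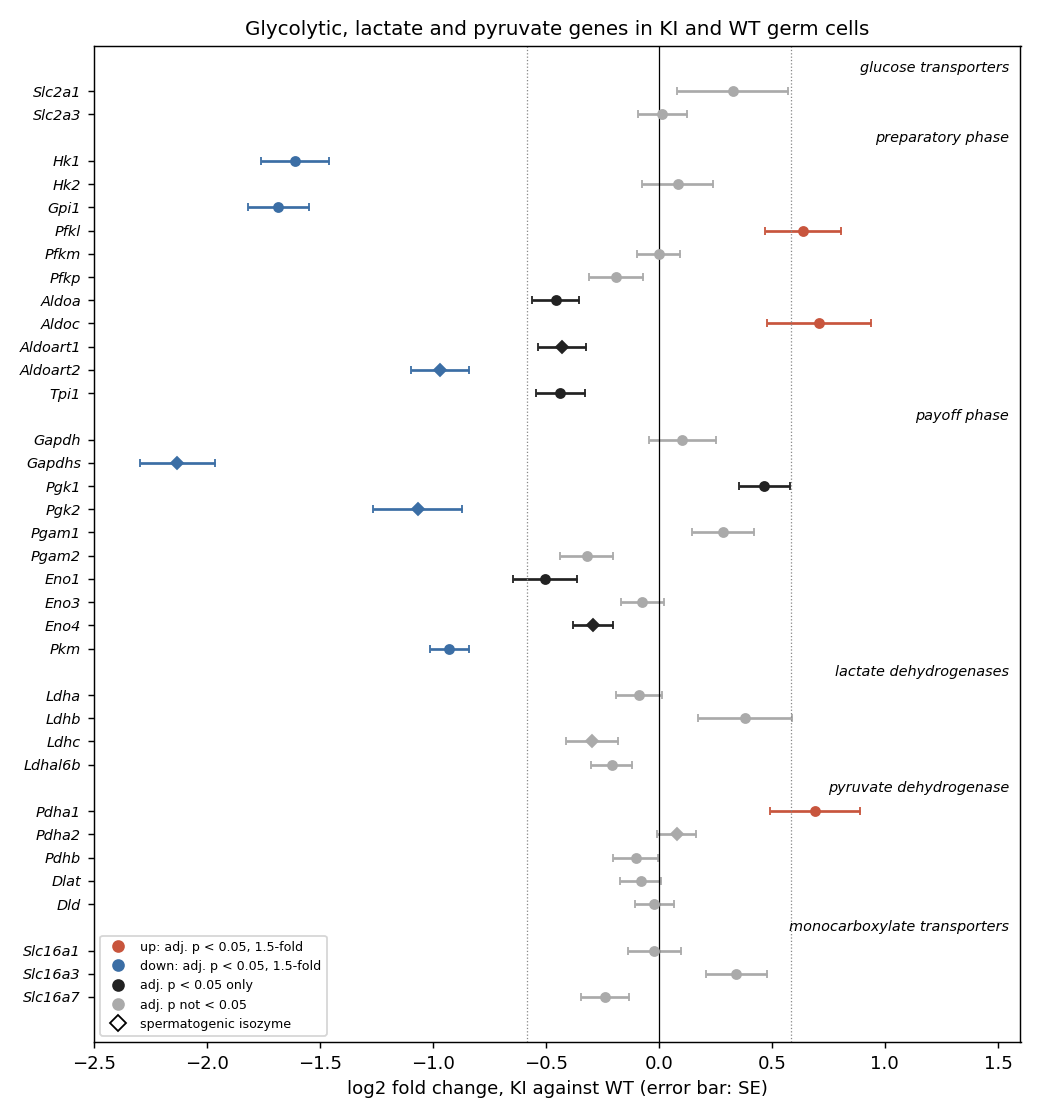
Log2 fold change, KI against WT, of the 35 members, grouped by role on the vertical axis. Points are limma estimates from 5 WT and 5 KI libraries with their SE, diamonds mark spermatogenic isozymes and circles the other members. The lowest points are Gapdhs at −2.13, Gpi1 at −1.68 and Hk1 at −1.61, and the highest is Aldoc at 0.71.

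The 6 down-regulated members kept their call in each of 24 alternative scalings, tests, filters and subsets of libraries. The 3 up-regulated members did not, as given below for each. The scaling mattered for members with small differences, since with library totals the median of all genes tested moved from 0.03 to 0.25, and the summed normalized counts of the KI libraries all lay under those of the WT libraries. With library totals, 11 members were higher and 6 lower by the adjusted p alone. The share of all genes that passed under this scaling was not set beside these counts. Aldoa, Aldoart1, Tpi1, Eno1 and Eno4 no longer passed there, while Ldhb (0.61) and Pgk1 (0.69) were called up-regulated, and Slc16a3 (0.57), Pgam1 (0.51), Pdha2 (0.31), Slc2a3 (0.25), Pfkm (0.23) and Dld (0.21) passed the adjusted p as higher.

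Glucose enters cells through transporters of the SLC2 family, and neither member of this group was called or passed an unadjusted p under 0.05 in limma. Slc2a3, a high-affinity transporter of neurons and germ cells, was abundant in both genotypes, with 35105 ± 2421 normalized counts in WT and 35552 ± 3470.1 in KI (SD, n = 5), a log2 fold change of 0.02 with an SE of 0.11. Slc2a1, the transporter of most proliferating cells, had 72.0 ± 30.7 in WT and 85.2 ± 13.6 in KI (SD, n = 5; log2 fold change 0.33, SE 0.25). The WT libraries of Slc2a1 lay at 42.3 to 59.6 in libraries 1 to 3 and at 100.3 and 109 in libraries 4 and 5. Libraries 1 to 3 alone gave 0.61, with a call, and libraries 4 and 5 gave −0.09.

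The first phosphorylation of glucose is carried out by hexokinases. Hk1 (chr10:62268855-62379909 in mm10), whose germ cell transcripts encode the hexokinase of sperm, had 32458, 36164, 35895, 26724 and 33814 normalized counts in WT libraries 1 to 5 and 8999.6, 9232, 9015, 14475 and 13216 in KI libraries 1 to 5. The lowest WT library stood well above the highest KI library, and KI libraries 4 and 5 were the highest of their group. Hk1 was 3.05-fold lower in KI (log2 fold change −1.61, SE 0.15, limma adjusted p = 2.2e-06). Libraries 1 to 3 alone gave −1.94, and libraries 4 and 5 gave −1.12. Hk2, the inducible hexokinase of muscle and growing cells, had 262 ± 62.1 in WT and 273 ± 33.2 in KI (SD, n = 5) and was not called (log2 fold change 0.08, SE 0.16). Per kilobase of its longest coding mRNA, Hk1 made up 99.4% of the summed hexokinase level of these 2 genes in WT and 98.1% in KI.

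Glucose 6-phosphate is turned into fructose 6-phosphate by the isomerase of Gpi1 (chr7:34201327-34230337). Gpi1 had 6294, 6628, 7400.2, 4304 and 4898 normalized counts in WT libraries 1 to 5 and 1711, 1852, 1786, 2068 and 1619 in KI libraries 1 to 5. KI libraries lay close together, and WT libraries 4 and 5 were the lowest of their group but above each KI library. Gpi1 was 3.21-fold lower in KI (log2 fold change −1.68, SE 0.14, limma adjusted p = 4.5e-07), with −1.92 in libraries 1 to 3 and −1.33 in libraries 4 and 5. No isozyme of Gpi1 was among the members. A gene on the other strand, Gm26762, covers 11.5% of the exon bases of Gpi1.

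Phosphofructokinase commits the sugar to glycolysis. Pfkm, the muscle form, had 2635 ± 105 normalized counts in WT and 2649 ± 346 in KI, and Pfkp, the platelet form, had 2956 ± 175 and 2632 ± 519 (SD, n = 5), with log2 fold changes of 0.00 (SE 0.10) and −0.19 (SE 0.12). Neither was called, and KI libraries of Pfkp lay at 2143 to 2403 in libraries 1 to 3 and at 3194 and 3189 in libraries 4 and 5. Pfkl (chr10:77986949-78009808), the liver form, was the least abundant of the 3, with 112, 84.4, 174, 120.4 and 135 normalized counts in WT libraries 1 to 5 and 204, 181, 213, 155 and 202 in KI libraries 1 to 5. WT library 3 overlapped with KI, and the other 4 WT libraries lay below each KI library. Pfkl was 1.56-fold higher in KI (log2 fold change 0.64, SE 0.17, limma adjusted p = 0.013), it was 0.47 in libraries 4 and 5 alone, where it was not called (adjusted p = 0.2), and without WT library 2 its fold change fell below 1.5. Per kilobase it made up 2.03% of the phosphofructokinase level in WT and 3.27% in KI.

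Some markers of somatic cells were up-regulated in KI, as were these low members. Of 7 markers of Leydig cells, the androgen-producing cells of the testis, 3 were up-regulated (Cyp17a1, Cyp11a1 and Insl3), and their summed level was 10291 to 18066 in WT and 14779 to 25692 in KI. Of 8 markers of macrophages, 4 were up-regulated (Csf1r, Cd68, C1qa and Lyz2), with summed levels of 735 to 958 in WT and 1090 to 1415 in KI. None of 8 markers of Sertoli cells was called in limma, and 1 was higher at an unadjusted p under 0.05 (Gata4, which also passed the adjusted p). The summed level of the Sertoli markers was 6098 to 9998 in WT and 6253 to 10693 in KI. Peritubular myoid cells had 2 of 4 tested markers up-regulated (Acta2 and Des), and the other 2 were lower without a call (Myh11 −0.30 and Tagln −0.23). Endothelial cells had 1 of 4 up-regulated, and red blood cells 1 up-regulated and 1 down-regulated of 4. The part of these cells in the values of Pfkl, Aldoc and Pdha1 was not tested.

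The aldolases split fructose 1,6-bisphosphate into triose phosphates. Aldoart2 (chr12:55565205-55566897), a spermatogenic isozyme, had 7061, 8399.6, 8299, 5623 and 6154 normalized counts in WT libraries 1 to 5 and 3645, 4089, 3823, 3657 and 2859 in KI libraries 1 to 5. Genotypes did not overlap, and the lowest library of each was a library of number 4 or 5. It was 1.96-fold lower in KI (log2 fold change −0.97, SE 0.13, limma adjusted p = 6.3e-05). Aldoart1, the other spermatogenic aldolase, had 2596, 2905, 2698, 2501 and 2233 in WT and 2061, 2054, 2019, 2017 and 1492 in KI. The genotypes did not overlap, KI library 5 stood apart, and the log2 fold change was −0.43 (SE 0.11, limma adjusted p = 0.0091), which is under 1.5-fold.

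Aldoa, the widely expressed aldolase of muscle, differed by about as much as Aldoart1. It had 6229.8 ± 594 normalized counts in WT and 4553 ± 563 in KI (SD, n = 5), and the log2 fold change was −0.46 (SE 0.10, limma adjusted p = 0.0051). Aldoc, the aldolase of brain, was scarce, with 55.4, 93.6, 37.4, 69.2 and 85.6 in WT libraries 1 to 5 and 94.7, 107, 117, 80.8 and 144 in KI libraries 1 to 5. WT libraries 2 and 5 overlapped with KI library 4. Aldoc was 1.63-fold higher in KI (log2 fold change 0.71, SE 0.23, limma adjusted p = 0.038), and it did not pass the adjusted p when WT library 1, 3 or 4 or KI library 2, 3 or 5 was left out (adjusted p up to 0.0903), or in libraries 4 and 5 alone. Per kilobase, Aldoart2 fell from 44.5% ± 2.96 of the summed aldolase level in WT to 35.7% ± 0.788 in KI, while Aldoa made up 42.1% ± 2.46 and 48.2% ± 1.497 (SD, n = 5).

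Tpi1, the isomerase that equalizes the triose phosphates, has no isozyme among the members. It had 7916 ± 693 normalized counts in WT and 5875 ± 746 in KI (SD, n = 5), with the highest KI library at 6577 and the lowest WT library at 7097. The log2 fold change was −0.44 (SE 0.11, limma adjusted p = 0.0080), under 1.5-fold, and it was −0.21 (adjusted p = 0.118) with library totals. In the preparatory phase as a whole, 2 of 11 members were up-regulated (18.2%) and 3 were down-regulated (27.3%), against 6.13% and 8.22% of all genes tested.

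**Figure D2:**
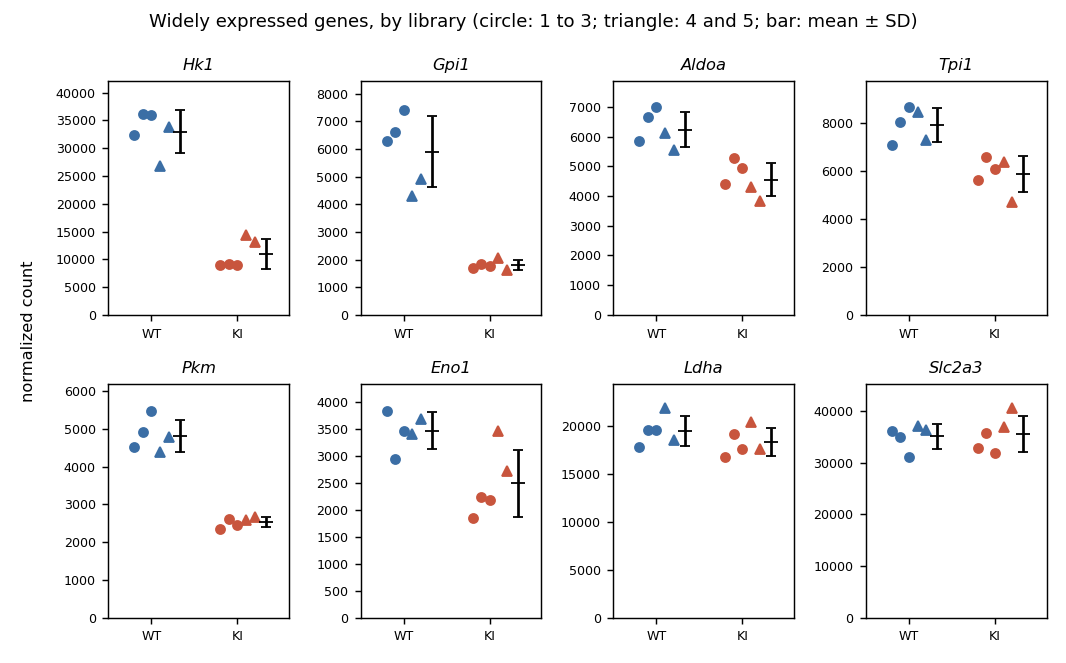
Normalized counts of 8 members outside the spermatogenic isozymes in 5 WT (blue) and 5 KI (red) libraries, each axis from 0, with circles for libraries 1 to 3, triangles for libraries 4 and 5 and bars for mean ± SD. Hk1, Gpi1, Aldoa, Tpi1 and Pkm do not overlap between genotypes, Eno1 overlaps through KI library 4 (3466), and Ldha and Slc2a3 overlap widely.

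The payoff phase opens with glyceraldehyde 3-phosphate dehydrogenase. Gapdhs (chr7:30729779-30743682), its sperm form, which is bound to the fibrous sheath of the flagellum, had 22117, 25329, 26694, 14159.6 and 16565 normalized counts in WT libraries 1 to 5 and 4775, 5031, 5218, 4853 and 3587 in KI libraries 1 to 5. WT libraries 4 and 5 were lower than the other WT libraries and still above each KI library. Gapdhs was 4.38-fold lower in KI (log2 fold change −2.13, SE 0.17, limma adjusted p = 3.7e-07), the lowest log2 fold change of the 35 members, with −2.30 in libraries 1 to 3 and −1.88 in libraries 4 and 5. An antisense gene, Tmem147os, covers 10.1% of the exon bases of Gapdhs, and whether strand was used in counting is not given in the sources used here.

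Gapdh, the widely expressed enzyme, was low in these libraries, with 260.5, 273, 366, 291 and 262 normalized counts in WT and 371, 335, 379.9, 241 and 250.3 in KI. The genotypes overlapped, and the log2 fold change was 0.10 (SE 0.15, limma adjusted p = 0.671), with 0.28 in libraries 1 to 3 and −0.17 in libraries 4 and 5. Of the 100-base stretches in the mRNA of Gapdh, 78.0% also occur in other annotated genes such as the pseudogene Gapdh-ps15, so that its count depends on how reads were divided among them. Per kilobase, Gapdhs made up 98.5% ± 0.385 of the summed level of Gapdhs and Gapdh in WT and 93.5% ± 0.964 in KI (SD, n = 5).

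Phosphoglycerate kinase makes the first ATP of the payoff phase. Pgk2 (chr17:40207018-40208610), the autosomal copy used from meiosis on, had 24695, 26631, 25714, 19899 and 16188 normalized counts in WT libraries 1 to 5 and 12911, 13789.8, 12599, 9239 and 6536 in KI libraries 1 to 5. Libraries 4 and 5 were the lowest of both genotypes, and genotypes did not overlap. Pgk2 was 2.09-fold lower in KI (log2 fold change −1.07, SE 0.20, limma adjusted p = 0.0010), with −0.97 in libraries 1 to 3 and −1.21 in libraries 4 and 5.

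Pgk1 (chrX:106187100-106203700), the X-linked kinase of other cells, had 123, 113, 123, 114 and 104 normalized counts in WT and 175, 159, 168, 144 and 155 in KI. It was the only member whose KI libraries each lay above each WT library. Its log2 fold change was 0.47 (SE 0.11, limma adjusted p = 0.0071), which is under 1.5-fold, and 0.69 with library totals, where it was called. It was 0.45 in libraries 4 and 5 alone, where it did not pass the adjusted p (0.214), and 67.0% of the 100-base stretches of its mRNA occur in other genes. Pgk2 made up 99.5% of the summed kinase level per kilobase in WT and 98.6% in KI.

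Phosphoglycerate mutase moves the phosphate before the enolase step. Pgam2, the muscle form, predominated, with 14442 ± 1457 normalized counts in WT and 11628 ± 1666 in KI (SD, n = 5), and Pgam1, the brain form, had 599 ± 66.3 and 739 ± 148. Neither passed the adjusted p in limma (log2 fold change −0.32, SE 0.12, adjusted p = 0.063 for Pgam2, and 0.28, SE 0.14, adjusted p = 0.159 for Pgam1). With the library number as a block both did, at adjusted p = 0.0129 for Pgam2 and 0.0203 for Pgam1. Per kilobase Pgam2 was 98.1% of the summed mutase level in WT and 97.0% in KI, and 39.7% of the 100-base stretches of Pgam1 occur in other genes.

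Enolase makes phosphoenolpyruvate. Eno1, the widely expressed form, had 3471 ± 345 normalized counts in WT and 2497 ± 624 in KI (SD, n = 5), which is under 1.5-fold (log2 fold change −0.50, SE 0.14, limma adjusted p = 0.018). KI library 4 (3466) lay within the WT range of 2937 to 3843, and Eno1 was called when it was left out, and in libraries 1 to 3 (−0.70), whereas in libraries 4 and 5 the difference was −0.21 (adjusted p = 0.433). Without WT library 1 its adjusted p was 0.0513. Eno4, an enolase of sperm that is needed for motility, had 1111 ± 69.4 in WT and 908 ± 72.3 in KI. The KI libraries of Eno4 (842 to 988) lay below the WT libraries (1046 to 1218). The log2 fold change was −0.29 (SE 0.09, limma adjusted p = 0.024), and leaving out WT library 4 or KI library 1 or 3 ended the pass (adjusted p up to 0.0659), as did upper quartile scaling (−0.20, adjusted p = 0.0937) and libraries 4 and 5 alone (−0.36, adjusted p = 0.148). Eno3, the muscle form, had 416 ± 22.4 and 396 ± 35.9 and was not called (log2 fold change −0.07, SE 0.10).

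Eno1b, an intronless relative of Eno1 that was outside the 36 symbols and among the other genes of the pathway, was down-regulated, with 5602 ± 1091 normalized counts in WT and 2939.6 ± 794 in KI (SD, n = 5; log2 fold change −0.95, SE 0.18, limma adjusted p = 0.0013). It is among 4 genes that share 100-base stretches with Eno1, which together cover 59.0% of its mRNA, so that the values of Eno1 and Eno1b depend on how shared reads were divided.

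Pyruvate kinase closes glycolysis with a further ATP. Pkm (chr9:59656368-59679376), the kinase of muscle and most other tissues, had 4523, 4916, 5471, 4378 and 4774 normalized counts in WT libraries 1 to 5 and 2341, 2605, 2451, 2581 and 2658 in KI libraries 1 to 5. Both genotypes were narrow and far apart. Pkm was 1.90-fold lower in KI (log2 fold change −0.93, SE 0.09, limma adjusted p = 2.1e-06), with −1.01 in libraries 1 to 3 and −0.80 in libraries 4 and 5. A gene on the same strand, Gm49759, covers 15.3% of the exon bases of Pkm, and 9.82% of the 100-base stretches of its mRNA occur in other genes. In the payoff phase as a whole, 3 of 10 members were down-regulated (30.0%) and none was up-regulated in limma, against 8.22% and 6.13% of all genes tested. Pgk1 was the 1 member of that phase higher at an unadjusted p under 0.05 in limma. Of the 35 members, edgeR and DESeq2 called the same 3 up-regulated and 6 down-regulated.

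The lactate dehydrogenases had the highest summed level per kilobase of the enzyme groups, and none of the 4 was called in limma, with 2 lower at an unadjusted p under 0.05 (Ldhc and Ldhal6b). Ldhc (chr7:46861263-46878145), the spermatogenic isozyme that serves sperm motility, had 59356, 59466, 54459, 53502 and 49307 normalized counts in WT libraries 1 to 5 and 44239, 46572, 46231, 50237 and 38300.5 in KI libraries 1 to 5. KI library 4 lay above WT library 5, and the other KI libraries lay below the WT range. The log2 fold change was −0.29 (SE 0.12, limma adjusted p = 0.081). It passed the adjusted p in edgeR with TMM, in DESeq2, in libraries 1 to 3 alone and without KI library 4 (limma adjusted p = 0.0444), and with library totals the value was −0.06.

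Ldha, the muscle form, favours lactate production in most cells, and it had 19457 ± 1553 normalized counts in WT and 18307 ± 1464 in KI (SD, n = 5; log2 fold change −0.09, SE 0.10). Ldhal6b, an intronless gene of the testis, had 13452 ± 775 and 11649 ± 867 (log2 fold change −0.21, SE 0.09, limma adjusted p = 0.12), and its exon is wholly overlapped by a gene on the other strand. Ldhb, the heart form, had 743, 702, 867, 523 and 543 in WT and 1081, 1073, 1183, 550.0 and 636 in KI. Libraries 1 to 3 were above libraries 4 and 5 in both genotypes, and within each number KI was higher. The log2 fold change of Ldhb was 0.38 (SE 0.21, limma adjusted p = 0.214), with the library number as a block the adjusted p was 0.0058, and with library totals it was called at 0.61 (adjusted p = 0.0445). Per kilobase, Ldhc made up 66.2% ± 1.64 of the summed lactate dehydrogenase level in WT and 63.6% ± 1.45 in KI (SD, n = 5), Ldha 17.7% and 19.5%, Ldhal6b 15.3% and 15.6%, and Ldhb 0.850% and 1.35%.

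In the pyruvate dehydrogenase complex, Pdha1 was the 1 member of 5 that was called, against 14.4% of all genes tested in either direction. Pdha1 (chrX:160122219-160138431), the X-linked E1 alpha subunit of somatic cells, had 58.6, 90.2, 43.5, 45.1 and 67.8 normalized counts in WT libraries 1 to 5 and 105, 116, 89.6, 77.9 and 92.9 in KI libraries 1 to 5. WT library 2 overlapped with KI libraries 3 and 4, and the other WT libraries lay below each KI library. Pdha1 was 1.61-fold higher in KI (log2 fold change 0.69, SE 0.20, limma adjusted p = 0.020), and leaving out WT library 3 or 4 or KI library 2 ended the pass (adjusted p up to 0.0574), as did libraries 4 and 5 alone (0.209). A gene on the other strand, Map3k15, covers 16.1% of the exon bases of Pdha1.

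Pdha2, the autosomal E1 alpha subunit of germ cells, had 3772, 3589.9, 3162, 3254 and 3076 normalized counts in WT and 3395, 3597, 3411, 3848 and 3516 in KI. The genotypes overlapped. The log2 fold change was 0.08 (SE 0.09, limma adjusted p = 0.570), and with library totals Pdha2 passed the adjusted p at 0.31 (adjusted p = 0.0056). Pdha2 was the only spermatogenic isozyme whose fold change was not below 0. Pdhb (E1 beta), Dlat (E2) and Dld (E3) had log2 fold changes of −0.10, −0.08 and −0.02, each with an SE of 0.09 or 0.10, and were not called.

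The monocarboxylate transporters carry lactate and pyruvate across membranes, and none of the 3 was called in limma, with 1 higher (Slc16a3) and 1 lower (Slc16a7) at an unadjusted p under 0.05. Slc16a7 (MCT2), a transporter of sperm and neurons, was the most abundant per kilobase, with 9013 ± 871 normalized counts in WT and 7656 ± 919 in KI (SD, n = 5; log2 fold change −0.24, SE 0.11, limma adjusted p = 0.129, and 0.0289 with the library number as a block). Slc16a1 (MCT1), found in most tissues, had 471 ± 55.0 and 465 ± 61.6 (log2 fold change −0.02, SE 0.12). Slc16a3 (MCT4), which exports lactate from glycolytic cells, had 187 ± 25.6 and 238 ± 40.3 (log2 fold change 0.34, SE 0.13, limma adjusted p = 0.079), with 0.15 in libraries 1 to 3 and 0.63 in libraries 4 and 5.

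**Figure D3:**
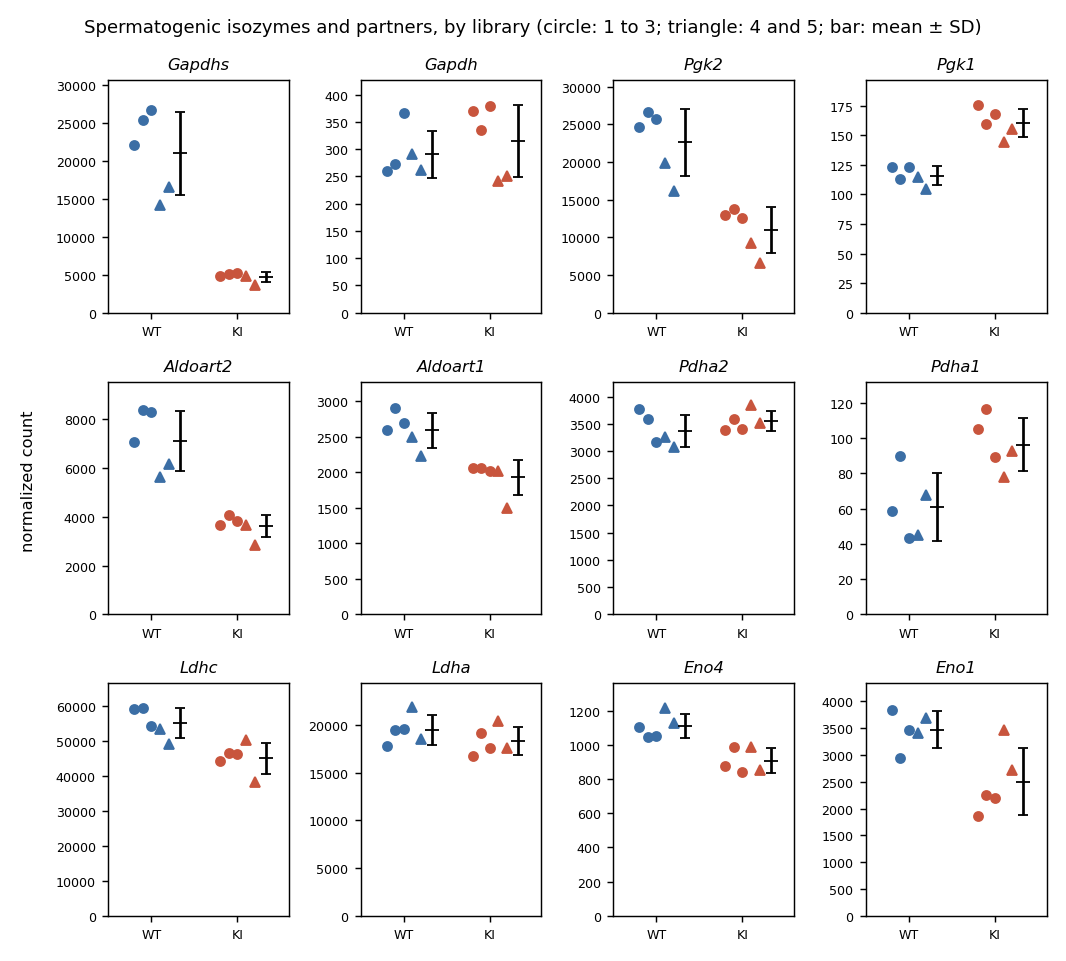
Normalized counts of the spermatogenic isozymes and of their partners in 5 WT (blue) and 5 KI (red) libraries, each axis from 0, with circles for libraries 1 to 3, triangles for libraries 4 and 5 and bars for mean ± SD. The KI points of Gapdhs, Pgk2 and Aldoart2 lie under all WT points, those of Pgk1 lie above them, and Pdha2 overlaps.

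A ratio of isozyme to partner within a library does not move with the scaling of that library, and the test of 7 such ratios was an exact two-sided permutation over the arrangements of 5 against 5 libraries, in which the smallest p is 0.00794. That test did not use the library number, by which the labels do not state a pairing. A test within 5 pairs of the same number cannot go below 0.0625. The log2 ratio of Gapdhs to Gapdh was 6.40, 6.53, 6.18, 5.60 and 5.98 in WT libraries 1 to 5 and 3.68, 3.91, 3.78, 4.32 and 3.84 in KI libraries 1 to 5. Each KI ratio was far below each WT ratio. The difference of the means was −2.23 (p = 0.00794 in the exact permutation test, 0.0185 after Benjamini-Hochberg adjustment over the 7 ratios), with −2.58 in libraries 1 to 3 and −1.71 in libraries 4 and 5. Per kilobase, Gapdhs was 47.3 to 90.1 times the level of Gapdh in WT and 12.5 to 19.5 times in KI.

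The log2 ratio of Pgk2 to Pgk1 was 7.63, 7.86, 7.69, 7.43 and 7.26 in WT and 6.20, 6.43, 6.22, 5.99 and 5.38 in KI, again without overlap. The difference was −1.53 (exact permutation p = 0.00794, adjusted 0.0185), in which Pgk2 was lower by 1.07 and Pgk1 higher by 0.47 on the log2 scale. Per kilobase, Pgk2 was 172 to 262 times the level of Pgk1 in WT and 46.9 to 96.7 times in KI. The log2 ratio of Aldoart2 to Aldoa was 0.28, 0.33, 0.25, −0.12 and 0.15 in WT and −0.28, −0.37, −0.37, −0.24 and −0.42 in KI. The groups did not overlap, and the difference was −0.51 (exact permutation p = 0.00794, adjusted 0.0185), with −0.62 in libraries 1 to 3 and −0.34 in libraries 4 and 5.

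The remaining 4 ratios did not pass after adjustment. That of Pdha2 to Pdha1 differed by −0.61 (exact permutation p = 0.0397, adjusted 0.0694) and was lower in KI within each of the 5 library numbers. In it Pdha2 was not lower (0.08 on the log2 scale), and Pdha1, at low counts, was higher by 0.69. That of Ldhc to Ldha differed by −0.21 (exact permutation p = 0.0556, adjusted 0.0778) and was lower in KI in 4 of 5 numbers. That of Eno4 to Eno1 differed by 0.21 (exact permutation p = 0.175) and had opposite signs in libraries 1 to 3 (0.45) and in libraries 4 and 5 (−0.15). That of Aldoart1 to Aldoa differed by 0.03 (exact permutation p = 0.651), less than the SD of the ratio in either genotype (0.08 in WT, 0.13 in KI).

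**Figure D4:**
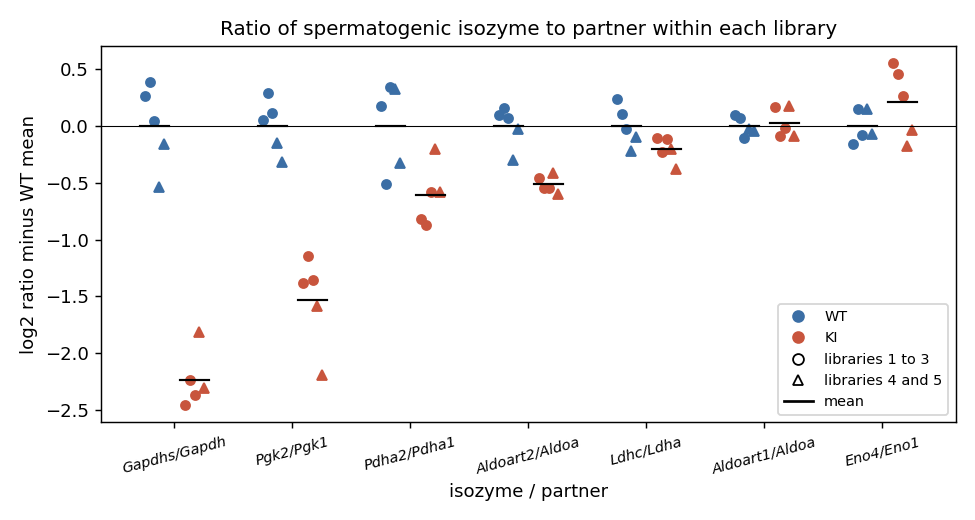
Log2 ratio of spermatogenic isozyme to partner in each library, with the WT mean of the pair subtracted, for 7 pairs in 5 WT (blue) and 5 KI (red) libraries. The KI libraries of Gapdhs/Gapdh, Pgk2/Pgk1 and Aldoart2/Aldoa lie below each WT library, at mean differences of −2.23, −1.53 and −0.51, and those of Aldoart1/Aldoa overlap with WT.

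All 35 members had log2 fold changes of −2.13 to 0.71, with a median of −0.09. The 6 down-regulated members, which the call takes for a fall of at least 1.5-fold, had log2 fold changes of −2.13 to −0.93. Those of the 6 elongating spermatid markers ran from −3.30 to −2.14 and those of the 6 round spermatid markers from −0.58 to 0.00. Of 6 round spermatid markers none was called in limma, 3 were lower at an unadjusted p under 0.05 (Spaca1, Tssk1 and Catsper3, which also passed the adjusted p), and their summed level was 24058 to 27106 in WT and 18391 to 23069 in KI. The part of the cell composition in the values of the members was not tested.

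Other genes of glycolysis, gluconeogenesis and pyruvate or lactate handling were described from a separate list of 43, of which 35 were tested. Of them 5 were up-regulated (14.3%) and 2 down-regulated (5.71%), against 6.13% and 8.22% of all genes tested. By the adjusted p alone 6 were higher and 8 lower (9.65% and 13.3% of all genes tested). The median log2 fold change was −0.08, against 0.03 over all genes tested. The down-regulated genes were Eno1b and Gpd2, the mitochondrial glycerol 3-phosphate dehydrogenase that passes electrons from cytosolic NADH to the respiratory chain, with 6822 ± 1532 normalized counts in WT and 3458 ± 257 in KI (SD, n = 5; log2 fold change −0.95, SE 0.14, limma adjusted p = 0.00013). The up-regulated genes were low in counts. Among them were Hk3, a hexokinase of blood cells (22.9 ± 4.08 in WT, 47.6 ± 8.86 in KI, log2 fold change 1.02), Pfkfb1, the liver enzyme that makes and degrades fructose 2,6-bisphosphate (1.01), Ldhd, a D-lactate dehydrogenase (0.94), and Pck2, the mitochondrial phosphoenolpyruvate carboxykinase (0.64).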

How the data were processed

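RNA-Seq libraries of germ cells from 5 WT and 5 KI mice were analysed, grouped by their labels. In Partek Flow, the authors used STAR for alignment to mm10 and the E/M model for counting on RefSeq_v91, and the deposited signal is each count divided by the DESeq2 size factor. Multiplying by the size factor gave whole reads (tolerance 0.1) for 100% of the values under 5000 reads. The members and gene lists were chosen with earlier results of these data known. The genes named are the members, the called genes of the other pathway genes, markers and Ddx25, except 1 called gene that is not reported here.

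limma (version 3.58.1, R 4.3.3) with a variance trend was fitted to log2(value + 1) of the 15389 genes past filterByExpr of edgeR (version 4.0.16), with Benjamini-Hochberg adjustment over all of them. Calls needed an adjusted p under 0.05 and a fold change of at least 1.5, as in the study. Scripts were tested on simulated data. Ratios were compared by exact permutation. Alternatives were scalings, edgeR and DESeq2 (version 1.42.0) on recovered reads, pseudocounts of 0.1 and 10, filters, thresholds, a replicate block, the read quality groups (libraries 1 to 3, and 4 and 5) and leaving out each library. The interaction of genotype with the read quality group and sign flips of the ratios within library numbers were added after seeing the data. The labels number the libraries and do not say that mice were paired, and the number was used in alternatives only. Deviations from the genotype mean correlated between WT and KI libraries of the same number, 1 to 5, at r = 0.306, 0.105, 0.280, 0.216 and 0.462. Libraries of the same number also share a read quality group, and no correlation between different numbers was set beside these. The values therefore cannot tell a pairing by number from that grouping. No replicate pair agreed within counting noise (chi-square per degree of freedom 2.66 to 46.9). Lengths, exons and shared stretches came from GENCODE vM21, and promoters from RefSeq, which held windows for 32 members. Mice are the replicates, and limits given for counts cover counting error only.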

Additional observations from a re-analysis of the deposited data

Results flagged for a closer look

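In 5 of 84 groups of 5 libraries of the members and ratios, 1 library lay apart from the others by Dixon's criterion, where chance gives about 1 in 20, or 4.2. KI library 5 held 4 of them: Aldoart1 (1492 normalized counts, the others 2017 to 2061), Gapdhs (3587, the others 4775 to 5218), Pdhb (1515, the others 1890 to 2014) and Slc16a3 (307, the others 203 to 229). The other was Gapdh in WT library 3 (366, the others 260.5 to 291).

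The fall of Hk1 differed between the read quality groups. It was smaller in libraries 4 and 5 than in libraries 1 to 3 by 0.82 on the log2 scale (limma interaction term, adjusted p = 0.0478 over all genes, where 0.247% of genes tested passed). Of the 35 members, 9 had an unadjusted interaction p under 0.05, as did 16.1% of all genes tested, and Hk1 had the lowest adjusted p. The mean of the summed elongating spermatid markers was lower in libraries 4 and 5 in both genotypes (193286 against 317965 in WT, 30077 against 49350 in KI). The part of these cells in the Hk1 result was not tested.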

How the results depend on the processing

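The 6 down-regulated members kept their calls in all 24 alternatives, with 6 to 7 down-regulated members when each library was left out, and 11 at the adjusted p alone. The number of up-regulated members was 5 with library totals, 1 when genes had to average 100 normalized counts, 0 in libraries 4 and 5 alone (limma, 2 libraries a group, where 1 member was higher at an unadjusted p under 0.05), and 1 to 3 when each library was left out. With library totals Pfkm and Dld turned to 0.23 and 0.21 and passed the adjusted p. Sign changes, 41 values in 14 members, otherwise concerned members of at most 0.33 in size without a call. The Gapdhs to Gapdh ratio differed by −2.58 in libraries 1 to 3 and −1.71 in libraries 4 and 5, and the latter libraries gave −0.34 for Aldoart2 to Aldoa and −0.15 for Eno4 to Eno1, with no test. When each library was left out, the Ldhc to Ldha ratio differed by −0.26 to −0.15 (exact permutation p from 0.00794 without WT library 4 to 0.135) and that of Pdha2 to Pdha1 by −0.74 to −0.53 (exact permutation p from 0.0238 to 0.0794). With exact sign flips within the 5 pairs, added after seeing the data, the differences of −2.23 for Gapdhs to Gapdh, −1.53 for Pgk2 to Pgk1, −0.51 for Aldoart2 to Aldoa and −0.61 for Pdha2 to Pdha1 each had p = 0.0625, the smallest that 5 pairs allow, so that none could pass. With the replicate block, that is the library number as a block, the same 3 and 6 members were called. By the adjusted p alone, 6 were higher and 13 lower there, and no call changed beyond those given above. Shares of all genes tested are given for the main fit and the interaction only, so that counts of members in the alternatives stand without them. The low counts of Aldoc and Pdha1 limit their precision.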
